A study of Mus musculus with 59 samples.

Results

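Tac1, Tac2, Tacr1, Tacr3, Kiss1 and Kiss1r, the genes of the brain tachykinins, of kisspeptin and of their receptors, were followed across 3 brain regions of the mouse and 2 treatments. They were chosen by name, and 5 of the 6 matched a row of the deposited table of 21935 genes; Kiss1 is not analysed here. The study took C57BL/6 mice that received a single intraperitoneal injection of IP118/PY115, which its title describes as co-agonism at the PYY and GLP-1 receptors, or of vehicle. Brains were taken 4 h later, frozen and cut at 10 µm, and laser capture collected 4 mm2 of each region from each mouse: the paraventricular nucleus (PVN) and the arcuate nucleus (ARC) of the hypothalamus and, in the brainstem, the solitary tract nucleus (NTS). PolyA RNA was sequenced in 59 libraries, 10 vehicle and 10 treated in PVN, 9 and 10 in ARC, and 10 and 10 in NTS. All groups share the strain, the injection and the time; the labels give no age or sex, no dose, and no key that ties a library to a mouse.

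Tachykinins are short neuropeptides that share one carboxy-terminal core and act on receptors that couple to Gq. Tac1 encodes the precursor of substance P, which prefers the receptor encoded by Tacr1, and of neurokinin A; Tac2 encodes the precursor of neurokinin B, which prefers the receptor encoded by Tacr3. In the arcuate nucleus, neurons that make kisspeptin also make neurokinin B and dynorphin (Pdyn) and drive the pulses of gonadotropin-releasing hormone, while in the solitary tract nucleus substance P is known from the terminals of visceral sensory fibres and from local neurons. Kiss1r encodes the kisspeptin receptor.

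On GRCm38 the genes lie at chr6:7554879-7565834 (Tac1, ENSMUSG00000061762), chr10:127724478-127731768 (Tac2, ENSMUSG00000025400), chr6:82402334-82560104 (Tacr1, ENSMUSG00000030043), chr3:134829007-134934579 (Tacr3, ENSMUSG00000028172) and chr10:79916971-79922273 (Kiss1r, ENSMUSG00000035773). The coding stretches of the 3 tachykinins are shown because they are what makes Tac1 and Tac2, the ligand genes compared here, members of one family. Each is 30 coding bases of the GENCODE M21 transcript (GRCm38, plus strand) that end with the shared core, the 15 bases in capitals.
Substance P stretch of Tac1, chr6:7556735-7556764: cccaagcctcagcagTTCTTTGGATTAATG
Neurokinin A stretch of Tac1, chr6:7559101-7559130: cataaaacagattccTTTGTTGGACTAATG
Neurokinin B stretch of Tac2, chr10:127729116-127729145: gacatgcacgacttcTTTGTGGGACTTATG
Within the 15 core bases the neurokinin B stretch differed from the neurokinin A stretch at 2 positions and from the substance P stretch at 5, and the 2 stretches of Tac1 differed from each other at 3. The substance P stretch is in 3 of the 4 coding transcripts of Tac1 and the neurokinin A stretch in 2 of the 4. Counts were summed per gene, so the 2 peptides of Tac1 cannot be separated here.

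Library totals ran from 3964093 to 28510118 counts. Except for Cartpt, the markers listed for each captured nucleus were on average highest in the libraries of that region. Avp, Oxt and Sim1 averaged 6261, 7088 and 134 CPM (counts per 1000000 counts of a library) in vehicle PVN. Agrp averaged 597 CPM in vehicle ARC and Dbh 182 CPM in vehicle NTS. Cartpt, listed for ARC, averaged 266 CPM in vehicle ARC and 300 CPM in vehicle NTS. Markers of other cells varied as well. The 6 oligodendrocyte markers summed to medians of 929, 756 and 5066 CPM in vehicle PVN, ARC and NTS and 916, 880 and 4597 CPM in treated libraries. ARC treated 2 stood out at 5567 CPM with the lowest sum of ARC markers, 1676 CPM, and ARC treated 3 held 378 CPM of lateral hypothalamus markers against a treated ARC median of 1.32 CPM. Between treatments in ARC all 6 oligodendrocyte markers were positive, with a median log2 difference of 1.01, and 0 of 6 were called. Of all 13484 genes tested there 0% were called, so that count says nothing about these markers. The part of these cells in the differences between regions and treatments was not tested beyond a fit with marker scores as covariates, in which no member was called between treatments. Ddx3y, a gene of the Y chromosome, was read in all 59 libraries, between 84.3 and 203 CPM. The 6 libraries that carry number 1, with 1 vehicle and 1 treated library in each region, need care. Over all libraries Zbtb16 was called between treatments in PVN (1.13, edgeR FDR = 0.0149), while in ARC and NTS, where 0% of all genes were called, neither Zbtb16 nor Fosb passed. Fosb, which active neurons switch on, stood at 39.6 CPM in NTS vehicle 1 against a median of 1.76 CPM over the vehicle libraries there, and at 0.853 CPM in NTS treated 1 against a median of 29.3 CPM over the treated ones. Zbtb16, a gene that glucocorticoids induce, was highest among vehicle libraries in vehicle 1 of every region, at 45.9, 49.5 and 25.5 CPM in PVN, ARC and NTS. Among treated libraries it was lowest in treated 1 of PVN and NTS, at 32.8 and 11.9 CPM, but not in ARC, where treated 1 held 29.7 CPM and the lowest library 21.8 CPM. In PVN, Fosb was highest among vehicle libraries in vehicle 1, at 21.7 CPM against a median of 3.74 CPM. It was lowest among treated ones in treated 1, at 3.33 CPM against a median of 25.1 CPM. The libraries numbered 1 of NTS and of PVN thus lay nearer the Fosb median of the opposite treatment. ARC treated 1 held the least Fosb of treated ARC, 2.07 CPM, where the medians were 4.21 CPM in treated and 3.81 CPM in vehicle libraries. Whether labels were exchanged was not tested; an exchange would change what the treatment differences mean, so these 6 libraries were kept under their labels and results are also given without them. Numbers of libraries follow their order in the deposit and pair nothing.

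Tac1 was highest in NTS, intermediate in PVN and lowest in ARC. In vehicle NTS it ran from 52.1 through a median of 130.3 to 169 CPM (122 ± 35.1 CPM, SD, n = 10). In vehicle PVN it ran from 28.5 through 53.6 to 157 CPM (62.4 ± 34.5 CPM, SD, n = 10), and in vehicle ARC from 6.71 through 16.1 to 58.8 CPM (21.1 ± 16.6 CPM, SD, n = 9). All 10 PVN libraries lay above the ARC median and 9 of 10 below the NTS median, but the ranges overlapped: 4 of 10 PVN libraries lay below all NTS libraries, and 4 of 10 above all ARC libraries. The log2 difference was 1.54 ± 0.30 (SE) for PVN minus ARC (edgeR FDR = 2.17e-05), -0.97 ± 0.27 for PVN minus NTS (edgeR FDR = 0.00177) and -2.51 ± 0.30 for ARC minus NTS (edgeR FDR = 2.00e-10). Without the libraries numbered 1 these were 1.68, -1.01 and -2.69, and without the 5 vehicle libraries that carry label numbers 5553 to 5557 (PVN vehicle 8 to 10, ARC vehicle 8 and 9) 1.62, -1.26 and -2.89.

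Tac1 in ARC varied more between libraries than any other member did where it averaged over 5 CPM. Its coefficient of variation was 78.8% in vehicle and 56.998% in treated ARC, against 28.8% and 27.4% in NTS. The 3 ARC libraries with the most Tac1 were vehicle 9, treated 9 and vehicle 1, at 58.8, 37.3 and 36.3 CPM. The ventromedial nucleus borders the captured area, and its defining gene Nr5a1 stood at 2.13, 3.13 and 0.806 CPM in those libraries, against medians of 0.0856 and 0.271 CPM in vehicle and treated ARC. Nr5a1 was not confined to those 3 libraries. It had a count in 5 of 9 vehicle and 6 of 10 treated ARC libraries, with group means of 0.529 and 0.854 CPM. The whole list of 4 ventromedial markers (Nr5a1, Fezf1, Sox14, Adcyap1) summed to 18.2, 21.2 and 15.8 CPM in the 3 libraries with the most Tac1, the highest 2 sums of the vehicle libraries and the next to highest of the treated ones, in ranges of 9.84 to 18.2 CPM and 6.17 to 23.2 CPM. The PVN markers Avp, Oxt, Crh, Sim1 and Otp were also highest there, at 653 and 423 CPM in vehicle 9 and vehicle 1 and 512 CPM in treated 9, against medians of 281 and 277 CPM in vehicle and treated ARC. ARC treated 10, with the highest ventromedial sum, held 20.6 CPM of Tac1. The part of tissue around the nucleus in these values was not tested.

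Tac2 was an ARC gene in these data. In vehicle ARC it ran from 107 through 138 to 192 CPM (141 ± 24.8 CPM, SD, n = 9), with 636 to 1822 counts in each library. In vehicle NTS it ran from 0.670 through 3.03 to 5.38 CPM (3.08 ± 1.47 CPM, SD, n = 10), and in vehicle PVN from 0.0633 through 0.620 to 2.29 CPM (0.756 ± 0.680 CPM, SD, n = 10), where a library held only 1 to 11 counts. No ARC library overlapped either of the other regions. The log2 difference was -7.80 ± 0.28 for PVN minus ARC (edgeR FDR = 1.74e-31), 5.54 ± 0.22 for ARC minus NTS (edgeR FDR = 5.69e-30) and -2.27 ± 0.38 for PVN minus NTS (edgeR FDR = 1.13e-06). Without the libraries numbered 1 they were -7.54, 5.51 and -2.03. Since these are bulk samples, fewer cells of a type and less RNA per cell cannot be told apart.

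Per kilobase of exon, so that the 2 ligand genes can be set side by side, Tac2 stood at 103 ± 17.96 CPM per kilobase in vehicle ARC (SD, n = 9) and Tac1 at 35.9 ± 10.3 CPM per kilobase in vehicle NTS (SD, n = 10). Within a library Tac2 exceeded Tac1 in 9 of 9 vehicle and 10 of 10 treated ARC libraries, by 4.35 ± 0.99 and 4.56 ± 0.96 on the log2 scale (SD). In PVN and NTS it was the other way round in every library, with log2 ratios of -5.50 ± 1.55 in vehicle PVN and -4.14 ± 0.77 in vehicle NTS (SD). Neurokinin B message thus led in ARC and Tac1 message in the other 2 regions.

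**Figure D1:**
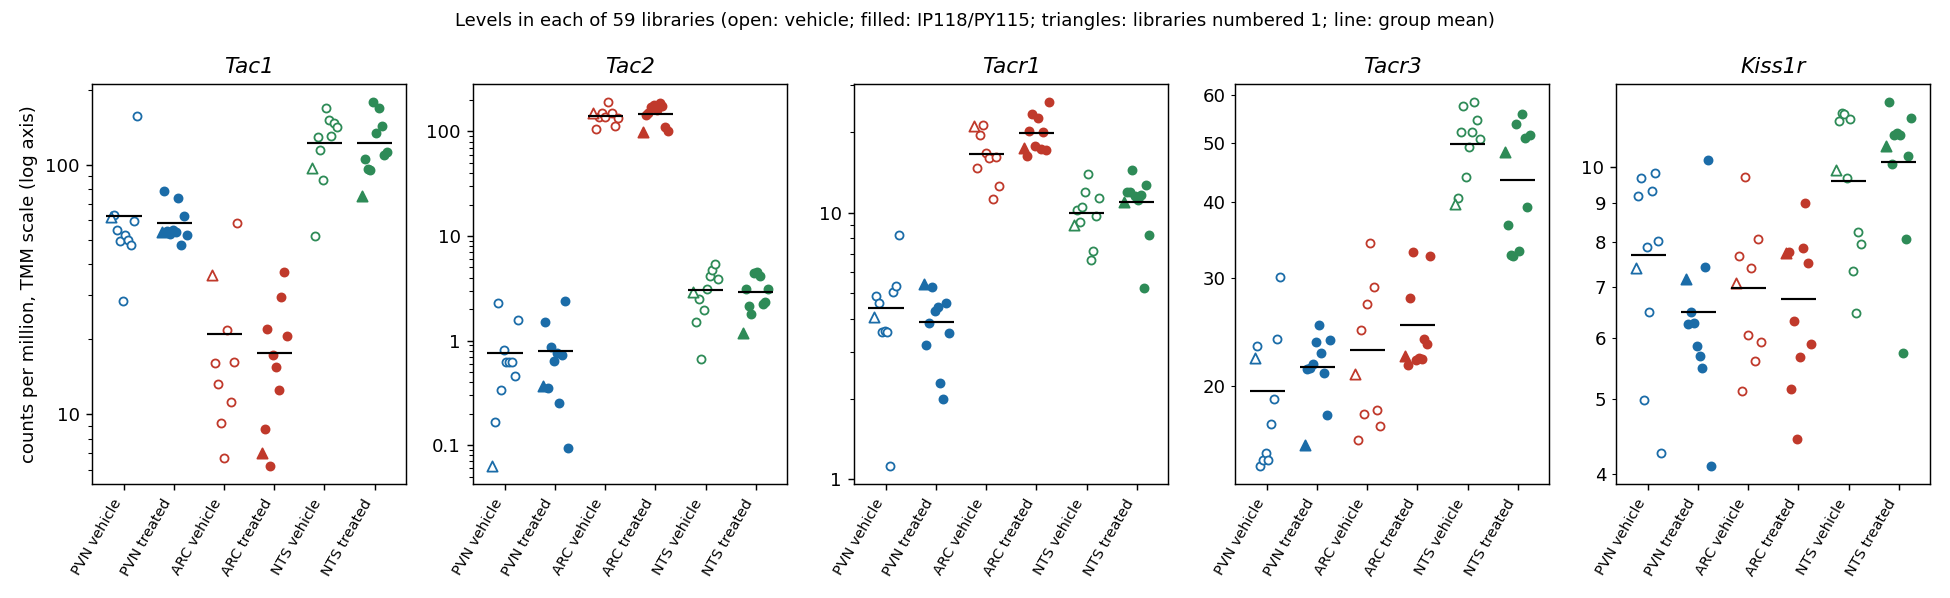
Level of each gene in each library, in CPM on a log axis whose range differs between panels, for the 6 groups of region and treatment (open vehicle, filled IP118/PY115, triangles the libraries numbered 1, black lines the group means). Tac2 in ARC lies clear of both other regions, Tac1 and Tacr3 are highest in NTS, and vehicle and treated points of one region overlap in every panel.

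Tacr1, the receptor preferred by substance P, was not highest where Tac1 was. It ran from 11.2 through 16.2 to 21.3 CPM in vehicle ARC (16.6 ± 3.54 CPM, SD, n = 9), from 6.61 through 9.97 to 13.9 CPM in vehicle NTS (9.95 ± 2.17 CPM, SD, n = 10) and from 1.12 through 4.32 to 8.23 CPM in vehicle PVN (4.38 ± 1.80 CPM, SD, n = 10). ARC and PVN did not overlap, and 7 of 9 ARC libraries lay above all NTS libraries. The log2 difference was -1.94 ± 0.18 for PVN minus ARC (edgeR FDR = 1.35e-14), 0.72 ± 0.16 for ARC minus NTS (edgeR FDR = 0.000110) and -1.22 ± 0.18 for PVN minus NTS (edgeR FDR = 2.48e-08). Without the libraries numbered 1 these were -1.87, 0.65 and -1.23.

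Tacr3, the receptor preferred by neurokinin B, was not highest where Tac2 was. In vehicle NTS it ran from 39.7 through 51.4 to 58.4 CPM (49.9 ± 6.56 CPM, SD, n = 10), above every vehicle library of the other regions. In vehicle ARC it ran from 16.3 through 20.9 to 34.3 CPM (22.9 ± 6.29 CPM, SD, n = 9) and in vehicle PVN from 14.8 through 18.2 to 30.1 CPM (19.6 ± 5.10 CPM, SD, n = 10). ARC and PVN overlapped, with 4 of 10 PVN libraries below all ARC libraries, and PVN minus ARC missed the threshold at -0.21 (95% interval -0.47 to 0.06, edgeR FDR = 0.201), although it passed without the vehicle libraries with label numbers 5553 to 5557 (-0.44, edgeR FDR = 0.0103) and by limma-voom (-0.33, adjusted p = 0.0306). NTS differed from both, with -1.35 ± 0.13 for PVN minus NTS (edgeR FDR = 2.79e-14) and -1.14 ± 0.13 for ARC minus NTS (edgeR FDR = 1.18e-11). Per kilobase, Tacr3 exceeded Tacr1 in every library, by a log2 ratio of 1.23 ± 0.53 in vehicle ARC, 3.05 ± 0.63 in vehicle PVN and 3.13 ± 0.42 in vehicle NTS (SD). In ARC this rests in part on the division by exon length. In CPM Tacr1 was the higher in ARC vehicle 1 (21.1 against 20.9) and vehicle 4 (21.3 against 17.98), and Tacr3 in the other vehicle ARC libraries.

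Kiss1r was low everywhere and nearly level. It ran from 6.48 through 9.81 to 11.8 CPM in vehicle NTS (9.62 ± 2.01 CPM, SD, n = 10), from 4.26 through 7.96 to 9.83 CPM in vehicle PVN (7.71 ± 1.95 CPM, SD, n = 10) and from 5.13 through 7.08 to 9.73 CPM in vehicle ARC (6.97 ± 1.44 CPM, SD, n = 9). All 3 ranges overlapped. ARC minus NTS was -0.47 ± 0.15 (edgeR FDR = 0.00500) and PVN minus NTS -0.35 ± 0.15 (edgeR FDR = 0.0376), while PVN minus ARC was 0.12 (95% interval -0.18 to 0.43, edgeR FDR = 0.540). The PVN minus NTS call was lost without the libraries numbered 1 (-0.34, edgeR FDR = 0.0660) and without label numbers 5553 to 5557 (-0.33, edgeR FDR = 0.0698). Of the 3856 exon bases of Kiss1r, 247 (6.41%) also lie in exons of R3hdm4 on the opposite strand, a gene at 33.6, 32.2 and 46.8 CPM in vehicle PVN, ARC and NTS; the strand setting of the counting is not given in the sources used here, so Kiss1r is uncertain to that extent.

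A call between regions was common in the whole table. Of all 14379 genes tested, 45.9% were called for vehicle PVN against ARC, 56.2% for PVN against NTS and 61.8% for ARC against NTS, beside 3, 5 and 5 of the 5 members. A gene scarce in 1 region entered this joint test through the other regions, which favours a call. Among the members this holds for Tac2, which the filter on low counts left out in PVN alone. The treated libraries, from other mice but tested in the same joint fit, gave the same 13 of 13 calls in the same directions. Of all genes tested, 48.7%, 58.8% and 63.7% were called in them. How many of the vehicle calls over all genes recurred was not counted, so 13 of 13 has no matching background here. The joint fit uses 1 filter and 1 estimate of each gene's spread for both treatments, so the treated calls are not an independent repeat. In treated libraries the log2 differences for PVN minus ARC, PVN minus NTS and ARC minus NTS were 1.73, -1.06 and -2.79 for Tac1. For Tac2 they were -7.68, -1.97 and 5.71, and for Tacr1 -2.35, -1.50 and 0.85. For Tacr3 they were -0.22 (not called), -1.02 and -0.79, and for Kiss1r -0.06 (not called), -0.66 and -0.60. Libraries of different regions came from shared mice that the labels do not name, and these p-values take them as independent. Scaling by library totals alone moved the split of all called genes for PVN against ARC from 3501 higher and 3104 lower to 2849 and 4005 in vehicle, and from 3522 and 3479 to 2847 and 4526 in treated libraries; the direction of no called member turned.

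**Figure D2:**
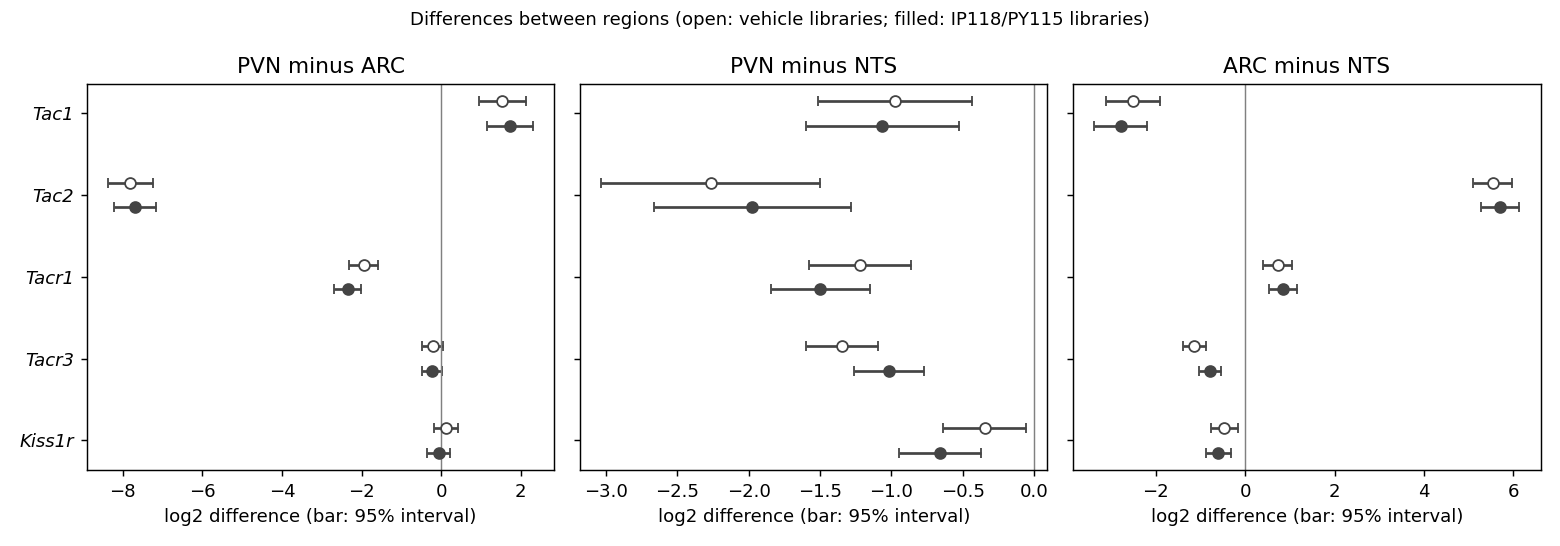
Log2 difference between regions for each gene with its 95% interval, from the vehicle (open) and the treated (filled) libraries; the horizontal scale differs between the 3 panels. Tac2 stands at -7.80 for PVN minus ARC in vehicle, and the vehicle and treated intervals of each gene overlap.

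None of the 5 genes was called between IP118/PY115 and vehicle in any region. In PVN 0 of 4 tested members passed, where 0.656% of the 13409 genes tested did; in ARC 0 of 5, where 0% of 13484 genes did; and in NTS 0 of 5, where 0% of 13696 genes did. By edgeR 972 genes in ARC and 795 in NTS had an unadjusted p under 0.05, and DESeq2 called 59 and 66. No member was called by DESeq2 or limma-voom, under any scaling or filter, or with any library left out that was tried. Without the libraries numbered 1 the genes called over the whole table came to 429, 153 and 162, again with 0 members.

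In ARC, Tacr1 came nearest. It ran from 16.3 through 18.9 to 26.04 CPM in treated libraries (19.8 ± 3.26 CPM, SD, n = 10), and 10 of 10 lay above the vehicle median although the ranges overlapped. The log2 difference was 0.25 ± 0.12 (unadjusted p = 0.0349, edgeR FDR = 0.645), and 0.32 without the libraries numbered 1 (edgeR FDR = 0.305). Tacr3 was 25.1 ± 4.46 CPM in treated ARC (SD, n = 10), a difference of 0.14 (95% interval -0.13 to 0.41, edgeR FDR = 0.858). Its treated libraries, too, lay above the vehicle median in 10 of 10 cases, so that trait was not particular to Tacr1. Tac2 was 148 ± 33.8 CPM (SD, n = 10), a difference of 0.07 (95% interval -0.22 to 0.36, edgeR FDR = 0.950) whose interval leaves out a change of 1.5-fold in either direction. Kiss1r differed by -0.05 (95% interval -0.36 to 0.26, edgeR FDR = 0.972). Tac1 had the widest interval, -0.27 (95% interval -1.15 to 0.60, edgeR FDR = 0.923), and the value without ARC vehicle 9 alone was 0.09.

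In NTS, Tacr3 was lower in treated libraries without passing the test. It ran from 32.6 through 43.8 to 55.8 CPM (43.5 ± 9.45 CPM, SD, n = 10), with 5 of 10 treated libraries below all vehicle libraries, and the difference was -0.20 ± 0.11 (edgeR FDR = 0.961), or -0.25 without the libraries numbered 1 (edgeR FDR = 0.611). Tac1, at 122 ± 33.5 CPM in treated NTS (SD, n = 10), differed by -0.01 (95% interval -0.40 to 0.39, edgeR FDR = 0.999). Tac2 differed by -0.09 (95% interval -0.68 to 0.50), Tacr1 by 0.13 (95% interval -0.16 to 0.42) and Kiss1r by 0.07 (95% interval -0.19 to 0.34), each at an edgeR FDR of 0.999.

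In PVN, Kiss1r stood at 6.50 ± 1.60 CPM in treated libraries (SD, n = 10), and 1 of 10 lay above the vehicle median. The difference was -0.24 (95% interval -0.56 to 0.08, edgeR FDR = 0.725). Tacr1 differed by -0.16 (95% interval -0.62 to 0.31, edgeR FDR = 0.8995) and Tacr3 by 0.12 (95% interval -0.12 to 0.36, edgeR FDR = 0.829). By limma-voom Tacr3 differed by 0.30 (adjusted p = 0.0757), and without label numbers 5553 to 5557 by 0.28 (edgeR FDR = 0.333). Tac1 differed by -0.10 (95% interval -0.54 to 0.34, edgeR FDR = 0.933), a direction that 1 library set: without PVN vehicle 10 it was 0.16. Tac2 was left out by the filter on low counts in PVN; with no filter its difference was 0.12 ± 0.50 (edgeR FDR = 0.969), which at 1 to 14 counts a library says little.

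**Figure D3:**
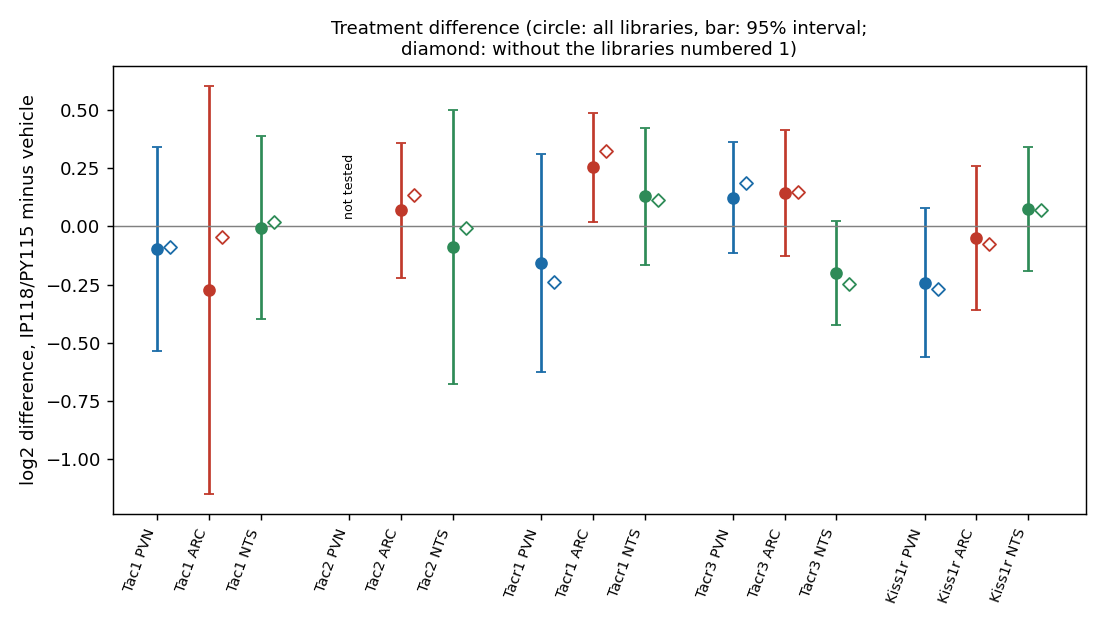
Log2 difference of IP118/PY115 minus vehicle for each gene and region with its 95% interval (circles), and the same without the libraries numbered 1 (open diamonds). Every interval but that of Tacr1 in ARC includes 0, and Tacr1 there did not pass after adjustment (edgeR FDR = 0.645).

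The treatment differences themselves did not differ detectably between regions for any member. Over all 14379 genes 0.0348% were called for PVN against ARC, 0.0904% for PVN against NTS and 0% for ARC against NTS, where 532 genes had an unadjusted p under 0.05 by edgeR and DESeq2 called 10. The smallest member p was for Tacr3, whose difference was higher in ARC than in NTS by 0.34 ± 0.18 on the log2 scale (unadjusted p = 0.0541 by edgeR, not passing after adjustment). By limma-voom the largest was Tacr3 for PVN against NTS, 0.58 (adjusted p = 0.0671), which was 0.33 by edgeR.

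Other peptides of these families were mostly scarce. Tac4 (hemokinin) had 14 counts and Tacr2 (the receptor preferred by neurokinin A) 42 counts over all 59 libraries, both under 1 CPM everywhere. Of the 10 listed tachykinin and RFamide genes 6 were tested between regions. There were 3, 6 and 4 calls for vehicle PVN against ARC, PVN against NTS and ARC against NTS. Of all genes, 45.9%, 56.2% and 61.8% were called. The median log2 differences of the list were -0.47, -1.37 and -0.15 beside 0.01, 0.01 and 0.00 over all genes. Npff averaged 0.229, 0.382 and 2.47 CPM in vehicle PVN, ARC and NTS, and Npffr2 0.0103, 1.89 and 1.94 CPM. Npff and Prlh thus entered the test through NTS, and Npffr2 through ARC and NTS. The filter favoured their calls, so the counts and medians of this list say little about it. Prlh, prolactin-releasing peptide, averaged 22.4 CPM in vehicle NTS and 0.306 CPM in ARC (ARC minus NTS -6.08 ± 0.73, edgeR) and had 0 counts in the 10 vehicle PVN libraries, so it was at least 675-fold higher in NTS, taking 3 counts over the whole PVN group as the floor. Npffr1, an RFamide receptor, was highest in PVN at 38.7 CPM, where ARC held 11.1 CPM and NTS 8.77 CPM (PVN minus ARC 1.79, PVN minus NTS 2.16, ARC minus NTS 0.37). Qrfpr was 0.96 higher in PVN than in ARC and 0.66 higher than in NTS on the log2 scale.

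Among genes that arcuate kisspeptin neurons carry, or that belong to the reproductive axis, several were highest in ARC like Tac2. Of 12 listed genes 11 were tested. In the same 3 contrasts 10, 9 and 10 were called, beside 45.9%, 56.2% and 61.8% of all genes. In PVN 6 were lower and 4 higher than in ARC, and in ARC 9 were higher and 1 lower than in NTS, with medians of -0.91 for PVN minus ARC, 0.88 for PVN minus NTS and 2.15 for ARC minus NTS. Tbx3, a transcription factor of arcuate neurons, stood at 175 CPM in vehicle ARC and under 5 CPM in PVN (-5.22 ± 0.15) and NTS (5.15 ± 0.15). Nr5a2 followed with 44.9 CPM (-4.74 ± 0.28 for PVN minus ARC, 7.76 ± 0.35 for ARC minus NTS). The oestrogen receptor gene Esr1 was at 126 CPM in ARC against 14.1 CPM in PVN (-3.18 ± 0.10), and the prolactin receptor gene Prlr at 149 CPM against 10.4 CPM in NTS (3.86 ± 0.15). Pdyn, Oprk1 and Prlr were higher in PVN than in NTS, by 1.42, 1.41 and 2.12 on the log2 scale, and Pdyn was at 258, 204 and 96.1 CPM in vehicle PVN, ARC and NTS, so it was not an ARC gene in the way Tac2 was.

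The Gq signalling genes that tachykinin and kisspeptin receptors use were present in all 3 regions. Of 18 tested, 12, 10 and 12 were called for PVN against ARC, PVN against NTS and ARC against NTS. Of all genes, 45.9%, 56.2% and 61.8% were called. The medians of the 18 genes were -0.13, -0.20 and -0.04. The protein kinase C gene Prkcb was higher in NTS (PVN minus NTS -1.46 ± 0.08, ARC minus NTS -1.25 ± 0.08), as was the arrestin gene Arrb1 over ARC (-1.40 ± 0.09) and the phospholipase gene Plcb4 over PVN (-0.66 ± 0.12). Prkce was lower in PVN than in ARC (-1.08 ± 0.05) and NTS (-0.64 ± 0.05), Itpr1 was higher in ARC than in NTS (1.199 ± 0.13), and Itpr3 and Plcb1 were higher in PVN than in ARC (1.48 ± 0.26 and 0.90 ± 0.10).

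Enzymes that cut or degrade peptides were called in 12, 11 and 11 of 15 cases, beside 45.9%, 56.2% and 61.8% of all genes. Their medians were 0.38, 0.46 and -0.18. The convertase genes Pcsk1 and Pcsk2, which cleave precursors such as these, were higher in PVN than in ARC (1.57 ± 0.12 and 1.204 ± 0.06), and Pcsk1 was also higher in PVN than in NTS (1.39 ± 0.11). Pcsk1n, which encodes a convertase inhibitor, was highest in ARC, at 2425 CPM (PVN minus ARC -0.81 ± 0.08, ARC minus NTS 0.83 ± 0.08). Mme, which encodes neprilysin, an enzyme that degrades tachykinins, was low and highest in NTS, at 6.78 CPM (PVN minus NTS -1.49 ± 0.33, ARC minus NTS -0.97 ± 0.33). Ece1 was lowest in NTS, at 76.8 CPM (PVN minus NTS 1.17 ± 0.08, ARC minus NTS 1.06 ± 0.08).

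None of these 4 lists had a called gene between treatments with all libraries kept, where 0.656%, 0% and 0% of all genes were called in PVN, ARC and NTS. The median log2 differences lay between -0.05 and 0.03 in PVN and between -0.12 and 0.02 in NTS. In ARC 3 lists had medians of 0.01 to 0.02, and the list of tachykinin and RFamide genes, with 4 tested, 0.29; over all genes the median was -0.02, 0.00 and 0.00 in PVN, ARC and NTS. In PVN the genes with the smallest p in each list were Npffr1 (0.21, edgeR FDR = 0.420), Slc17a6, the vesicular glutamate transporter (-0.14, FDR = 0.514), Arrb1 (-0.10, FDR = 0.537) and Pcsk2 (0.12, FDR = 0.485). In ARC they were Qrfpr (0.54, edgeR FDR = 0.658), Tbx3 (-0.24, FDR = 0.211), Plcb3 (-0.25, FDR = 0.707) and Ece1 (-0.12, FDR = 0.736). In NTS they were Npffr2 (-0.44, edgeR FDR = 0.999), Esr1 (-0.26, FDR = 0.448), Gna11 (-0.11, FDR = 0.631) and Pcsk1 (0.21, FDR = 0.848). Without the libraries numbered 1, Tbx3 was called lower in treated ARC (-0.28 ± 0.07, edgeR FDR = 0.0297) and no other gene of the 4 lists was called in any region. Over all genes 429 of 13342 were called in PVN under that setting, 153 of 13464 in ARC and 162 of 13744 in NTS. A single call among these lists is therefore no result about them.

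Among the ARC libraries Tac2 and Pdyn went together. After the mean of each treatment group was taken off, their log2 CPM gave Pearson's r = 0.65 and Spearman's rho = 0.68 over 19 libraries (permutation p = 0.00295 and 0.00216, adjusted 0.0177 and 0.0130 over 6 pairs of genes). Without the 2 libraries farthest from the median of Tac2 r was 0.76, and without the libraries numbered 1 it was 0.72 (adjusted permutation p = 0.00636). How many other genes reach such an r with Tac2 was not counted, so these p-values do not make the pair special. Among 11449 other genes searched in ARC the closest to Tac2 had r = 0.88. Tac2 and Tacr3 gave r = 0.25 (rho = 0.25, adjusted permutation p = 0.581 and 0.608), Tac2 and Tac1 r = -0.01 (rho = 0.01, adjusted permutation p = 0.954 and 0.962), and the other 3 pairs did not pass either. The points share the capture and the library: the ARC markers Agrp, Npy, Pomc, Cartpt and Ghrh summed to 2448 to 3740 CPM in vehicle and 1676 to 3219 CPM in treated ARC, and the part of how much of the nucleus a section held was not tested.

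**Figure D4:**
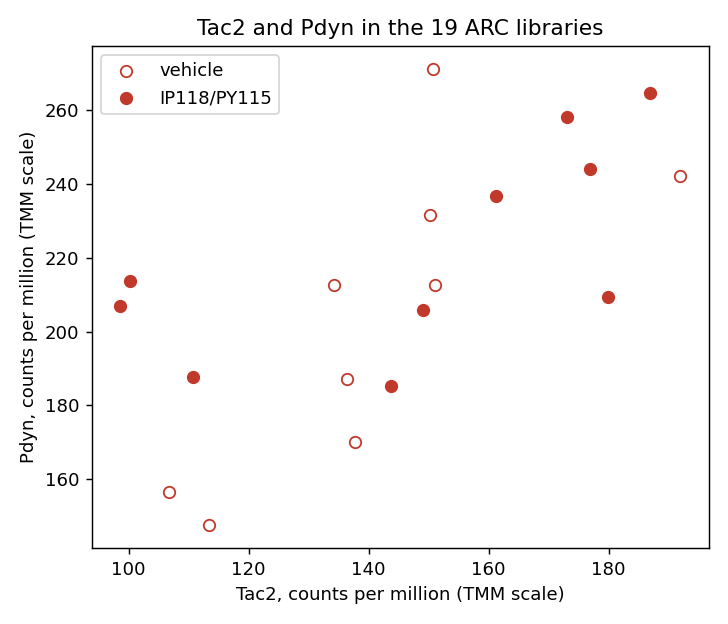
Tac2 against Pdyn in each ARC library, both in CPM, for 9 vehicle (open) and 10 treated (filled) libraries. Libraries with more Tac2 tended to hold more Pdyn (r = 0.65 after the group means were taken off), and both groups lie along the same range.

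The genes whose levels went most closely with each member within one region are given as a description, over 19 ARC or 20 NTS libraries that share capture, depth and library preparation. For Tac2 in ARC they were Lrrc17 (r = 0.88), Inhbb, a subunit of activin B (0.82), Rxfp1, the relaxin receptor (0.82), Greb1, an oestrogen-responsive gene (0.81), and Inpp1 (0.81). Lrrc17, Rxfp1 and Greb1 were also far higher in vehicle ARC, at 8.33, 36.7 and 27.6 CPM, than in PVN, at 0.301, 1.19 and 3.62 CPM, or NTS, at 0.193, 7.12 and 1.33 CPM. For Tac1 in NTS they were Skor2 (0.80), B3gat1 (0.80), Arhgap36 (0.80), Fam19a2 (0.78) and Vav2 (0.77). Skor2 followed the region as well, at 6.35 CPM in vehicle NTS, 0.0253 CPM in PVN and 0.636 CPM in ARC, while Arhgap36 was far higher in ARC, at 539 CPM, than in NTS, at 51.03 CPM.

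The genes nearest to the receptors had mixed regional patterns. Tacr1 in ARC went with Tbc1d25 (0.72), 6030458C11Rik (0.69), Col8a1 (0.68) and Ptpdc1 (0.66), and Tacr3 in NTS with Tmem132d (0.83), Cadm1 (0.81), Gtpbp4 (0.81), Slc39a6 (0.81) and Tmem65 (0.80). Of the latter, Tmem132d stood at 19.97 CPM in vehicle NTS, 7.12 CPM in ARC and 5.94 CPM in PVN, and Cadm1 was highest in PVN, at 546 CPM. Kiss1r in NTS went with Shank3 (0.90), Tnk2 (0.89), Akt2 (0.89), Jph3 (0.89) and Supt5 (0.89), all at like levels in the 3 regions, between 25.2 and 279 CPM.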

How the data were processed

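The authors deposited raw counts per Ensembl gene for 59 libraries; per the submitters' processing notes, bcl2fastq 2.20.0.422, STAR 2.5.2a and the GRCm38 build were used, and the read counter and its strand setting are not given in the sources used here. Symbols and exon lengths came from GENCODE M21 (GRCm38), which matched 21858 of 21935 IDs. Counts were tested with edgeR 4.0.16 (quasi-likelihood, robust, TMM) under R 4.3.3, keeping genes that pass filterByExpr at a minimum count of 10 and a minimum total of 15, each region alone for treatment and all 6 groups jointly for regions and for differences of treatment effects, with Benjamini-Hochberg FDR under 0.05 over all genes tested. Simulated counts held 100 randomly drawn genes changed 1.5-fold and 100 changed 2-fold in each region. The fits recovered 81%, 71% and 87% of the 1.5-fold changes in PVN, ARC and NTS. An FDR threshold is easier to pass when many genes change. These shares therefore do not say how often a lone change in a member would be found. Levels are counts per 1000000 (CPM) on the joint TMM scale. Medians of the totals were 10491077, 10392473 and 11700301 counts in PVN, ARC and NTS. No label ties a library to a mouse, so p-values measure the spread between libraries. Correlations used log2(CPM + 0.5) and 100000 permutations. Likeness searched genes with at least 5 CPM; 1 gene it named is not reported here. DESeq2, limma-voom, other scalings, filters, covariates and left-out libraries were tried. Named in each comparison were the members and, from each other list, at most 3 called genes: those of smallest p between treatments (with none called, the 1 of smallest p) and those of largest difference between regions, with at least 5 CPM in 1 group. Members and lists were chosen with earlier results of these data known.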

Additional observations from a re-analysis of the deposited data

Results flagged for a closer look

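Tac1 in PVN vehicle 10 stood apart from its group, at 157 CPM against 28.5 to 62.8 CPM in the other 9 vehicle PVN libraries. The gap took 0.732 of the range of the group, above Dixon's critical value of 0.466 for 10 samples. It was 1 of 30 pairs of gene and group examined, of which chance picks about 1 in 20. The same library was the highest of its group for Tacr1, at 8.23 CPM, Tacr3, at 30.1 CPM, Adcyap1, at 63.0 CPM, and the Y-linked gene Uty, at 61.6 CPM, and the lowest for Kiss1r, at 4.26 CPM, Pdyn, at 155 CPM, and for the summed PVN markers, at 8219 CPM. Its summed markers of astrocytes, 1548 CPM, and of microglia, 194 CPM, were the highest of the group, against medians of 986 and 116 CPM, those of endothelial cells, 116 CPM, the lowest, against a median of 180 CPM, and its TMM factor, 0.922, the lowest too. Without it the difference of IP118/PY115 minus vehicle for Tac1 in PVN was 0.16 in place of -0.10. The cause was not tested.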

How the results depend on the processing

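No member was called between treatments under any alternative, while the count of all genes called, the size of some member differences and the sign of small ones moved. The nearest to a call were 2 values by limma-voom, Tacr3 in PVN (0.30 in place of 0.12, adjusted p = 0.0757) and Tacr3 for PVN against NTS (0.58 in place of 0.33, adjusted p = 0.0671). The counts of 88, 0 and 0 genes in PVN, ARC and NTS became 175, 14 and 6 at FDR under 0.1, 209, 59 and 66 by DESeq2, 537, 28 and 53 by limma-voom, and 429, 153 and 162 without the libraries numbered 1. With marker scores as covariates they were 43, 16 and 7. In PVN alone the count was 12 without label numbers 5553 to 5557, 9 without libraries of low total and 6 with the log10 total as a covariate. Leaving out 1 library at a time gave 8 to 276 genes in PVN, 0 to 92 in ARC and 0 to 92 in NTS. Counts for differences between regions in treatment effect, 5 (PVN against ARC), 13 (PVN against NTS) and 0 (ARC against NTS), became 15, 20 and 10 by DESeq2, 26, 58 and 3 by limma-voom, and 52, 62 and 35 without the libraries numbered 1. The first 2 were 0 and 4 without label numbers 5553 to 5557, and 2 and 2 without libraries of low total.

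Reversed signs were mostly those of Tac1. Its treatment difference in PVN was 0.19 by limma-voom, 0.18 without label numbers 5553 to 5557 and 0.028 with marker scores, and in ARC 0.068 by limma-voom and 0.089 without those label numbers. In NTS it was 0.000368 by DESeq2, 0.041 by limma-voom, 0.021 without the libraries numbered 1 and 0.0085 with marker scores. Tac2 in NTS was 0.022 by limma-voom and 0.0099 with marker scores, and Tacr1 in PVN 0.12 without label numbers 5553 to 5557. With 1 library left out at a time, the range was -0.18 to 0.16 for Tac1 in PVN, -0.46 to 0.094 for Tac1 in ARC, -0.11 to 0.025 for Kiss1r in ARC, -0.095 to 0.058 for Tac1 in NTS and -0.22 to 0.042 for Tac2 in NTS. For differences between regions, Tacr3 for PVN against ARC was 0.15 by limma-voom, 0.041 without the libraries numbered 1 and 0.22 without label numbers 5553 to 5557. Tac1 was 0.15 and 0.19 for PVN against NTS, and 0.013 and 0.080 for ARC against NTS, by limma-voom and without those label numbers; without the libraries numbered 1, Tac1 and Tac2 for PVN against ARC were -0.038 and -0.10. The correlation of Tac1 with Pdyn was -0.017 without the libraries numbered 1, and that of Tac1 with Tac2 0.0073 under library totals, 0.010 given the log10 total and 0.025 without label numbers 5556 and 5557. The cause was not tested. Of the values of single members between regions, 131 in vehicle and 134 in treated libraries kept direction and call, 2 and 1 gained a call and 2 in vehicle lost one.

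No paired analysis was possible because the labels give no number that ties libraries to mice. Tac2 in PVN and Nr5a1 in ARC rest on few counts in a library, and Tac1 in ARC has an interval that reaches from -1.15 to 0.60.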
